A study of Mus musculus with 4 samples.

Results

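The transcripts of 6 genes linked to canonical Wnt signalling were followed in single-nucleus RNA of mouse brain. They were *Lef1*, *Tcf7l2*, *Tcf7*, *Tcf7l1*, *Axin2* and *Plekhg1*, out of 32285 genes in the gene list. They were chosen by symbol, and the choice was made with earlier results of these data known, including the contrast between the treatments. Values of that contrast are therefore given for the 6 genes as a description. All mice were 5XFAD, a transgenic model of amyloid deposition whose transgenes are driven by the neuronal Thy1 promoter, and the study describes them as female. They received 100 µL of extracellular vesicles (EVs) into a vein at an age of 7 to 10 weeks by the series' design text, while the study's methods give a higher upper age. The vesicles were engineered from the lipid of adipose EVs, without the nucleic acid and protein of those EVs. By the study's methods, the protein transferrin was then attached for delivery to the brain. The vesicles were either low (PE-low EVs) or high (PE-high EVs) in phosphatidylethanolamine (PE). Each group had 2 libraries with 2 mice pooled in each, so a value per library is a mean of 2 animals and n = 2 libraries per group. The comparison asks whether the lipid load of the vesicles changed transcription in single cell types of the brain. Mice without vesicles were not analysed here, and the time from injection to collection is not stated for these libraries, while the methods give either hours or weeks for the brains of other assays.

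In canonical Wnt signalling, secreted Wnt ligands bind Frizzled and Lrp5 or Lrp6 receptors, which stops the destruction complex of Axin, Apc and Gsk3 from degrading β-catenin. β-catenin then enters the nucleus and binds the TCF/LEF family of DNA-binding proteins, of which mammals have Tcf7, Lef1, Tcf7l1 and Tcf7l2. In the brain this pathway is known for forming and keeping the blood-brain barrier in endothelial cells, for timing the maturation of oligodendrocytes, where *Tcf7l2* marks newly differentiating cells, and for the identity of thalamic neurons, which keep *Tcf7l2* and *Lef1* into adult life. *Axin2* encodes a scaffold of the destruction complex and is a common target and feedback inhibitor of the pathway. *Plekhg1* encodes a guanine nucleotide exchange factor and is not a core member of the pathway.

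The libraries held between 29472021 and 43272337 unique molecular identifiers (UMIs, one per captured RNA molecule), and 37511 nuclei were used, between 7601 and 10292 per library with medians of 1240 to 2171 UMIs. Levels are given as counts per 1000000 UMIs of all genes (CPM) in the summed nuclei of a class and library, and intervals are exact 95% Poisson intervals that cover counting error only. Classes were named from marker genes and carry "-like" for that reason. A pair of libraries stood apart. In PE-low EVs replicate 1, the summed level of 6 interferon-induced genes (*Ifit1*, *Rsad2*, *Isg15*, *Gbp5*, *Iigp1* and *Cxcl10*, chosen after their values were seen) was 301 CPM in endothelial-like nuclei, against 22887 to 29132 CPM in the other 3 libraries. In PE-low EVs replicate 2, a neuronal cluster that expressed *Slc17a6*, *Synpo2* and *Ntng1* (cluster S5) was enriched, as described with the neurons. The called nuclei of any pair of libraries shared between 28 and 53 barcodes, at most 0.447% of the smaller library. Scrublet marked 5, 279, 1 and 3 nuclei as doublets in PE-low EVs replicates 1 and 2 and PE-high EVs replicates 1 and 2, which was too few to be a working call in 3 of 4 libraries, so no nuclei were removed as doublets. Clusters without a proposed name, or whose name failed the marker rule, were left unnamed (4041 nuclei). They included clusters 11, 15 and S4, which had neuronal markers, and cluster 12, which was led by haemoglobin genes.

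The 6 genes lie apart in the genome (GENCODE M21 on GRCm38). *Lef1* (ENSMUSG00000027985) spans chr3:131110471-131224356 on the plus strand and *Tcf7l2* (ENSMUSG00000024985) spans chr19:55741820-55933654 on the plus strand. *Tcf7* (ENSMUSG00000000782) and *Axin2* (ENSMUSG00000000142) are both on chromosome 11, at chr11:52252371-52283014 on the minus strand and chr11:108920349-108950783 on the plus strand. *Tcf7l1* (ENSMUSG00000055799) lies at chr6:72626378-72789254 on the minus strand and *Plekhg1* (ENSMUSG00000040624) at chr10:3740364-3967303 on the plus strand. Because the kit reads the 3′ end and the files count UMIs per gene, isoforms from different start sites could not be told apart. Of the 6 genes, 2 have an annotated start inside the gene whose 250 upstream bases hold a TCF/LEF motif, and both are shown because they belong to the pair of genes on which the results turn. The motif was searched as the letters CTTTGAA and the letters CTTTGAT, the letters CTTTGTA and the letters CTTTGTT, on either strand, with no other motif searched, and 14.8% of 32851 RefSeq promoters hold one. RefSeq lists 11 starts for the 6 genes, and the windows before the others hold none. Bases that match the motif are in capitals, all sequences are the plus strand of GRCm38.p6 from RefSeq, 5′ to 3′, and none of these windows overlaps an exon of its gene.
*Lef1* outermost start, chr3:131110047-131110296: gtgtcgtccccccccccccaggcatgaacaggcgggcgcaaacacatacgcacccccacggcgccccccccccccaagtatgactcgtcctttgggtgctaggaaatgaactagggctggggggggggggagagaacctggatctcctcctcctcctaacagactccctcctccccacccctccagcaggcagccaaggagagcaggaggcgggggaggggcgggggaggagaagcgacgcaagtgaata
*Lef1* inner start, within an intron, chr3:131156044-131156293: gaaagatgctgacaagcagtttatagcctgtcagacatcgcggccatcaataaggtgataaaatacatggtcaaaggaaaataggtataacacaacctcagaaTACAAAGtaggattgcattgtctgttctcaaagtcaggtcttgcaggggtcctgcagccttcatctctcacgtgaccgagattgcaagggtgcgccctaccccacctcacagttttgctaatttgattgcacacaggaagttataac
*Tcf7l2* outermost start, chr19:55741560-55741809: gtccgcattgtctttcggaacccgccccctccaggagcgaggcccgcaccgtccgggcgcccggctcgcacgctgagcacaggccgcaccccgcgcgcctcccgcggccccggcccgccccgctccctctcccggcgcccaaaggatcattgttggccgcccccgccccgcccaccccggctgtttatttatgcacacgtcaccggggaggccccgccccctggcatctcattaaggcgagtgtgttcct
*Tcf7l2* inner start, within an intron, chr19:55895071-55895320: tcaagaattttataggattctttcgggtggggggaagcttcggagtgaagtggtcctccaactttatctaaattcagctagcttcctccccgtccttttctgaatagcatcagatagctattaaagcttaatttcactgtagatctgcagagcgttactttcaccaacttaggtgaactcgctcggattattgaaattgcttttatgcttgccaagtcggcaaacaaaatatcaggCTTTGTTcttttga
The *Lef1* match reads TACAAAG, that is CTTTGTA on the other strand, and begins 147 bases before the start. The *Tcf7l2* match reads CTTTGTT and begins 14 bases before the start. A match is a description of letters and no evidence of binding.

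Transcripts of the 6 genes were spread unevenly over the cell types. *Lef1* had 625 UMIs in all, of which 216 (34.6%) were in endothelial-like nuclei, 1.36% of all nuclei, and 172 (27.5%) in unnamed vascular clusters. A further 110 (17.6%) were in *Slc17a6* subcortical glutamatergic neuron-like nuclei, which made up 1.06% of nuclei, and 57 (9.12%) were in astrocyte-like nuclei. *Tcf7l2* had 2575 UMIs, and its main sources were astrocyte-like (737, 28.6%), newly formed oligodendrocyte-like (484, 18.8%), *Slc17a6* subcortical neuron-like (308, 11.96%) and microglia-like nuclei (296, 11.5%). *Plekhg1* had 3232 UMIs, with 969 (29.98%) in astrocyte-like and 885 (27.4%) in oligodendrocyte-like nuclei. *Tcf7l1* had 810 UMIs, 312 (38.5%) of them in astrocyte-like nuclei, while *Tcf7* had 205, of which 99 (48.3%) were in striatal projection neuron-like nuclei. *Axin2* had 623 UMIs with no such source, since 214 (34.4%) were in excitatory neuron-like nuclei, which made up 28.1% of all nuclei.

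**Figure D1:**
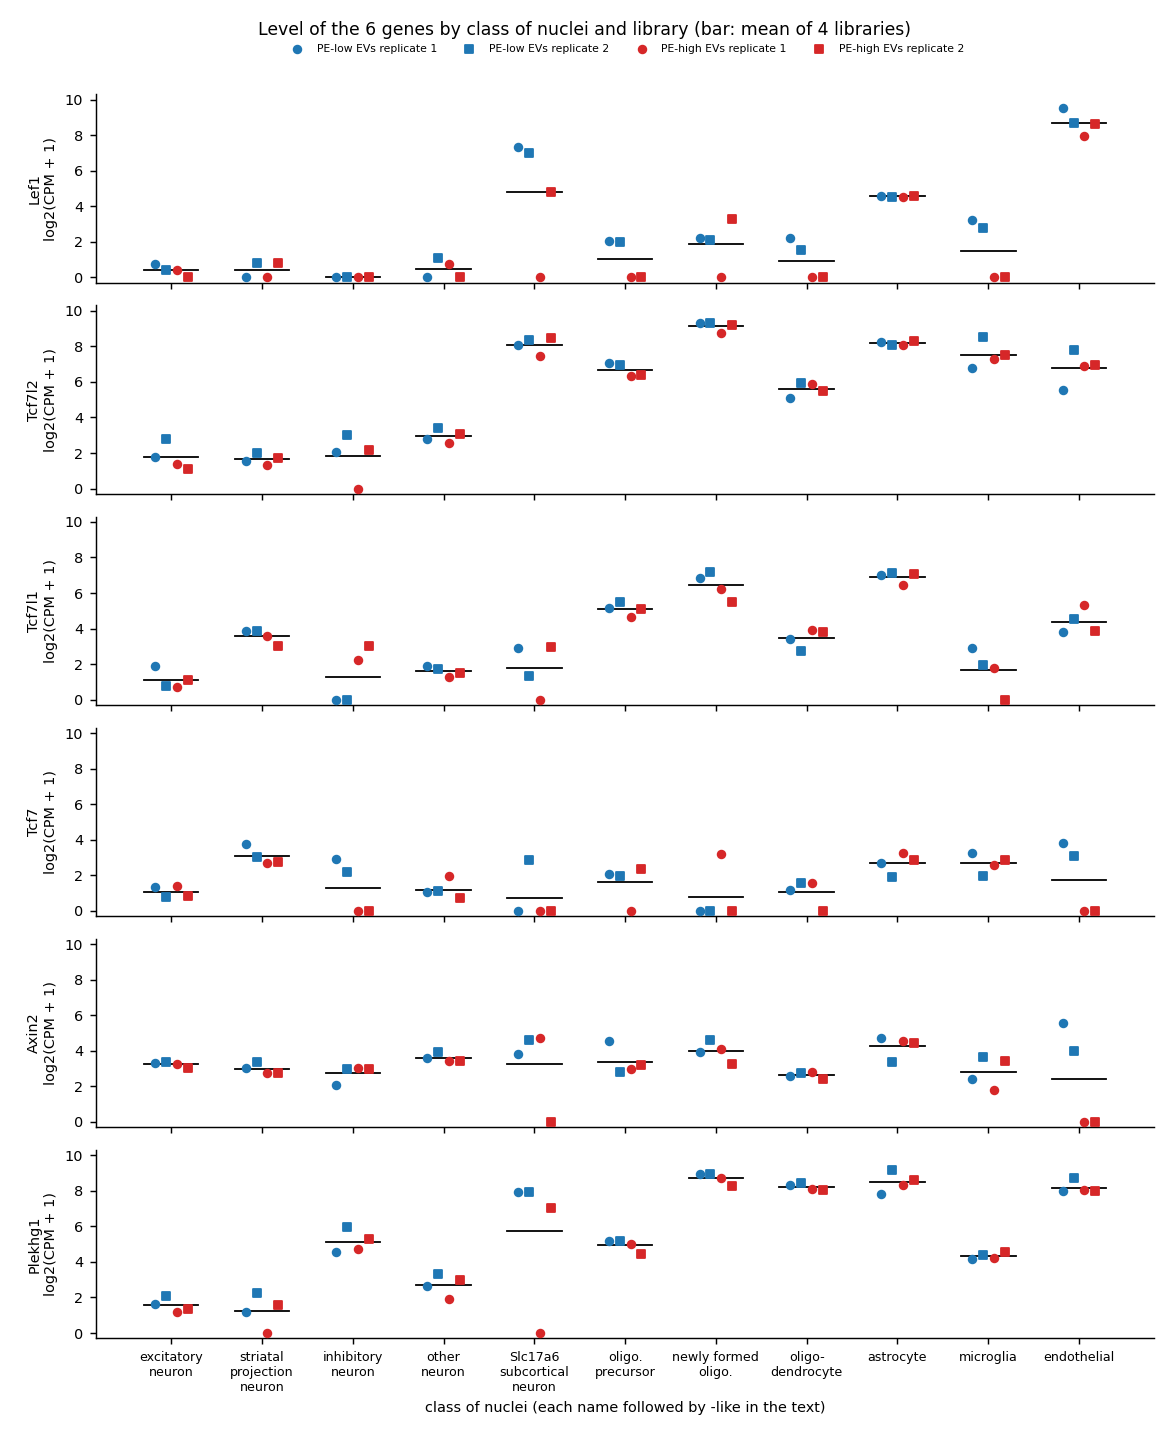
Level of each gene as log2(CPM + 1) by class of nuclei, with one point per library, blue for PE-low EVs and red for PE-high EVs, circles for replicate 1 and squares for replicate 2, and a bar at the mean of the 4 libraries on that scale. Lef1 stands highest in endothelial-like nuclei, at 250 to 740 CPM, and is near 0 in the large neuronal classes, while Tcf7l2 stands highest in newly formed oligodendrocyte-like nuclei, at 429 to 640 CPM.

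In endothelial-like nuclei (183, 123, 100 and 103 per library in the order PE-low EVs replicates 1 and 2, PE-high EVs replicates 1 and 2), *Lef1* was present in every library. Its level was 740 CPM (113 UMIs, interval 610 to 890) and 415 CPM (55 UMIs, 313 to 540) in PE-low EVs replicates 1 and 2. It was 250 CPM (19 UMIs, 150 to 390) and 392 CPM (29 UMIs, 263 to 564) in PE-high EVs replicates 1 and 2. All 8 endothelial markers, among them *Flt1* and *Cldn5*, were detected in each library, with a summed level of 7752 to 12651 CPM. *Lef1* therefore averaged 449 ± 207 CPM (SD, n = 4 libraries), and both PE-low libraries were above both PE-high libraries, although the intervals of PE-low EVs replicate 2 and PE-high EVs replicate 2 overlapped widely.

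*Tcf7l2* in the same nuclei was 45.8, 219, 118 and 122 CPM in that order, from 7, 29, 9 and 9 UMIs. Its lowest and its highest library were both of the PE-low group, so the groups overlapped. *Plekhg1* was 248.8, 415, 263 and 257 CPM, with the highest value again in PE-low EVs replicate 2. *Tcf7l1* had between 1 and 3 UMIs per library and *Tcf7* between 0 and 2. *Axin2* had 7 and 2 UMIs in the PE-low libraries and 0 in both PE-high libraries, where 3 UMIs would have been 39.4 and 40.6 CPM, a level close to the 45.8 CPM of PE-low EVs replicate 1, so at this depth its absence from the PE-high libraries could not be told from a low level.

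The endothelial-like nuclei fell into 2 sub-clusters that followed the libraries. Sub-cluster V1 held 182 of the 183 endothelial-like nuclei of PE-low EVs replicate 1 and 15, 17 and 13 of the other libraries. Sub-cluster V0 held 1 nucleus of that library and 108, 83 and 90 of the others, and *Cxcl9*, *Lcn2*, *Galnt15* and *Serpina3f* led its genes by fold. The library with the low interferon-induced genes was thus the one with the highest *Lef1* and the lowest *Tcf7l2*. In endothelial-like nuclei of the other 3 libraries, *Lef1* lay between 250 and 415 CPM and *Tcf7l2* between 118 and 219 CPM. The part of the interferon difference in these levels was not tested. *Cldn5*, a tight junction protein of the barrier, was 1349 CPM in PE-low EVs replicate 1 and 67.9, 223 and 203 CPM in the other libraries in the same order, and the transporter *Slco1a4* was 2934 CPM against 778, 631 and 1110 CPM. Markers of pericytes and smooth muscle summed to 1454 to 1736 CPM in these nuclei, and markers of fibroblasts to at most 40.6 CPM. Markers of oligodendrocytes summed to 1486, 1948, 907 and 798 CPM, so that both PE-low libraries were above both PE-high libraries, as for *Lef1*, and their part in its level was not tested.

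**Figure D2:**
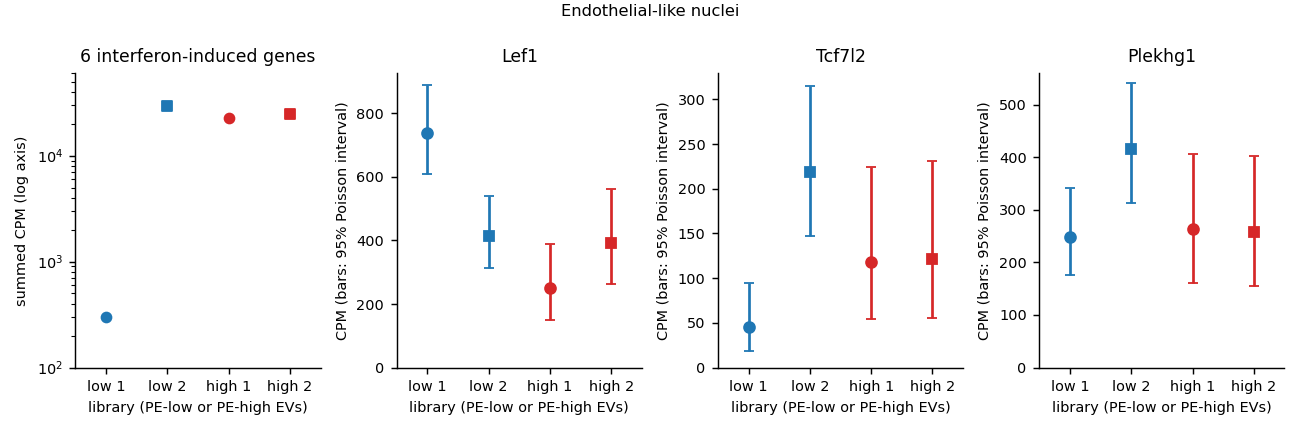
Endothelial-like nuclei of each library: summed level of 6 interferon-induced genes (CPM, log axis) and levels of Lef1, Tcf7l2 and Plekhg1 (CPM) with exact 95% Poisson intervals, blue for PE-low EVs and red for PE-high EVs. PE-low EVs replicate 1 is at 301 CPM for the interferon-induced genes, against 22887 CPM or more in the other libraries, and has the highest Lef1 and the lowest Tcf7l2.

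Among neurons, *Lef1*, *Tcf7l2* and *Plekhg1* were concentrated in a small subcortical population. Of 22371 neuron-like nuclei, 398 were *Slc17a6* subcortical glutamatergic neuron-like, named from markers such as *Slc17a6* (a vesicular glutamate transporter), *Ntng1* and *Synpo2*. *Lef1* in these nuclei was 162 and 127 CPM in PE-low EVs replicates 1 and 2 (25 and 81 UMIs) and 0 and 27.2 CPM in PE-high EVs replicates 1 and 2 (0 and 4 UMIs). The 0 came from 26 nuclei with 39665 UMIs in all, in which 3 UMIs would have been 75.6 CPM. In the remaining neuron-like nuclei *Lef1* was at 0.375 ± 0.201 CPM (SD, n = 4 libraries), from 18 UMIs, and in inhibitory neuron-like nuclei no UMI was counted in any library. These values did not exceed the level in empty droplets, the ambient RNA, which was 2.72, 5.88, 1.93 and 0.576 CPM for *Lef1* in the 4 libraries.

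*Tcf7l2* in the *Slc17a6* subcortical class was 273, 323, 176 and 354 CPM in the 4 libraries, with the groups overlapping, and 3.39 ± 1.97 CPM (SD, n = 4) in the other neuron-like nuclei. Its ambient level was 10.9, 36.8, 8.67 and 11.1 CPM, above the level in those other neurons in every library. *Plekhg1* was 240, 245, 0 and 129 CPM in the subcortical class and 3.597 ± 1.97 CPM (SD, n = 4) in other neuron-like nuclei, and its ambient level was 9.65, 22.0, 6.26 and 8.26 CPM. *Plekhg1* was above its ambient level also in inhibitory neuron-like nuclei, again cluster 13 alone, at 22.6, 62.6, 25.4 and 38.6 CPM from 7 to 18 UMIs per library.

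Cluster S5 accounted for most of this. *Plekhg1*, *Tcf7l2* and *Lef1* themselves were among its 10 leading genes by fold, beside the markers *Synpo2*, *Ntng1* and *Slc17a6*. It held 157 nuclei, 0.702% of neuron-like nuclei, but 78.1% of the neuronal *Lef1* UMIs, 49.6% of those of *Tcf7l2* and 55.2% of those of *Plekhg1*, with the 6 genes left out of the clustering. Of *Tcf7*, *Tcf7l1* and *Axin2* it held between 0.510% and 3.06%. The related cluster S6, with 167 nuclei, held a further 15.96% of neuronal *Tcf7l2* UMIs and 7.81% of *Lef1*, and none of *Plekhg1*. The third such cluster, S8, with 74 nuclei, held no UMI of *Lef1* or *Tcf7l2*.

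The nuclei of cluster S5 were unequally shared between the libraries. They numbered 16, 111, 2 and 28 in PE-low EVs replicates 1 and 2 and PE-high EVs replicates 1 and 2, or 0.267%, 2.65%, 0.0331% and 0.455% of neuron-like nuclei. The libraries were prepared from brain sections, and which regions each section held is not stated. Within S5, *Lef1* was 550 CPM (23 UMIs, interval 349 to 825) and 193 CPM (75 UMIs, 152 to 242) in the PE-low libraries. In PE-high EVs replicate 2 it was 34.9 CPM (2 UMIs, 4.23 to 126), below both intervals, and in PE-high EVs replicate 1 the 2 nuclei gave no UMI. *Tcf7l2* in S5 was 431, 474 and 524 CPM in the 3 libraries with more than 2 nuclei, and *Plekhg1* was 885, 402 and 332 CPM. In the whole neuron-like class, *Lef1* was 2.19, 6.92, 0.287 and 0.552 CPM, *Tcf7l2* was 5.85, 22.1, 2.68 and 7.17 CPM and *Plekhg1* was 5.41, 18.3, 1.82 and 5.15 CPM. Each was highest in PE-low EVs replicate 2 and lowest in PE-high EVs replicate 1, the libraries with the most and the fewest S5 nuclei. Without S5 the same libraries gave 0.513, 1.12, 0.287 and 0.370 CPM of *Lef1*, 4.55, 8.01, 2.58 and 4.44 CPM of *Tcf7l2*, and 2.71, 6.33, 1.82 and 3.42 CPM of *Plekhg1*. *Lef1* was detected in 8 of 16, 40 of 111, 0 of 2 and 2 of 28 S5 nuclei in the same order of libraries. *Tcf7l2* was detected in 9, 80, 1 and 18 of these nuclei and *Plekhg1* in 9, 54, 0 and 6. Median UMIs per S5 nucleus were 2832.5, 3500, 1707.5 and 1926. The parts of nuclei number, depth and RNA per nucleus in the class sums were not tested.

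**Figure D3:**
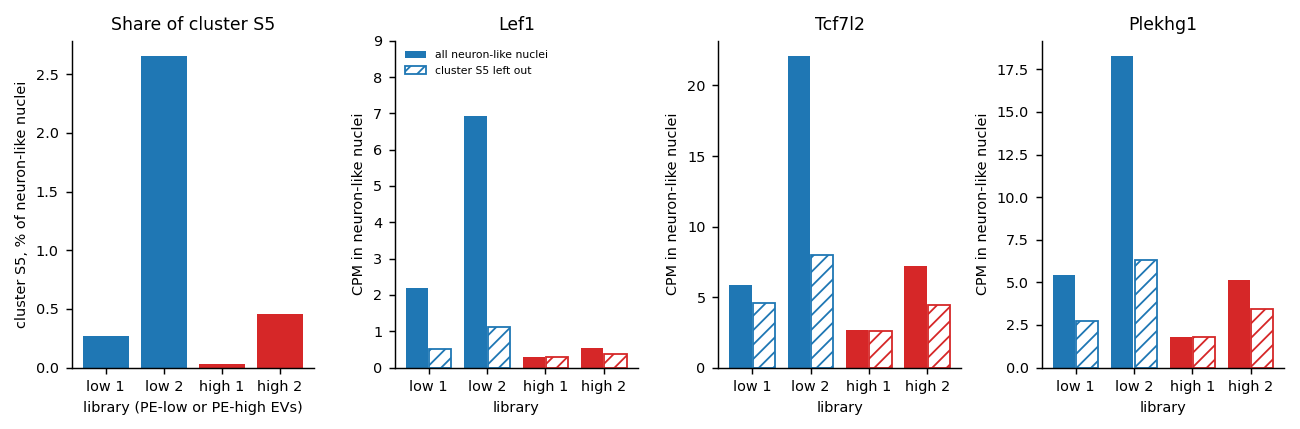
Left, cluster S5 as a percentage of neuron-like nuclei in each library, and right, the levels of Lef1, Tcf7l2 and Plekhg1 (CPM) in all neuron-like nuclei (filled bars) and with cluster S5 left out (hatched bars), blue for PE-low EVs and red for PE-high EVs. PE-low EVs replicate 2 has the largest share of S5 at 2.65% and the highest level of all 3 genes, and without S5 the levels there are 1.12 CPM of Lef1, 8.01 CPM of Tcf7l2 and 6.33 CPM of Plekhg1.

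*Tcf7* and *Tcf7l1* had another neuronal pattern. In striatal projection neuron-like nuclei *Tcf7* was 12.6, 7.05, 5.39 and 5.80 CPM (51, 19, 14 and 15 UMIs) and *Tcf7l1* was 13.4, 13.4, 11.2 and 6.97 CPM. In excitatory neuron-like nuclei, *Tcf7* lay between 0.703 and 1.63 CPM and *Tcf7l1* between 0.651 and 2.74 CPM. The striatal class was above the excitatory class in every library for both genes, and above the ambient level, which was at most 3.34 CPM for *Tcf7* and 2.41 CPM for *Tcf7l1*. *Axin2*, the feedback inhibitor, lay between 7.17 and 11.3 CPM in neuron-like nuclei, against 5.72 to 8.83 CPM in the ambient RNA.

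In the oligodendrocyte lineage *Tcf7l2* was highest at the newly formed stage. It was 131, 121, 79.0 and 83.7 CPM in oligodendrocyte precursor-like nuclei, 631, 640, 429 and 590.5 CPM in newly formed oligodendrocyte-like nuclei and 33.2, 59.2, 57.5 and 43.8 CPM in oligodendrocyte-like nuclei of the 4 libraries. The ranges of the newly formed stage and of either other stage did not overlap. The newly formed class was named from *Bcas1*, *Fyn* and other genes, not from *Tcf7l2*. These markers summed to 2868 to 3511 CPM in it and to 480 to 680 CPM in oligodendrocyte-like nuclei. The 6 oligodendrocyte markers, *Mbp* among them, were also higher in it, at 14342 to 17397 CPM against 10226 to 12475 CPM. The name of the stage therefore does not rest on low myelin RNA. *Tcf7l1* was likewise highest there, at 112, 146, 74.2 and 43.4 CPM, against 24.0 to 44.4 CPM in the precursor-like and 5.73 to 13.9 CPM in the oligodendrocyte-like nuclei. Its lowest newly formed library, with 5 UMIs, lay within the range of the precursors. *Lef1* had 2, 3 and 5 UMIs in all in the 3 stages, and both PE-high libraries had no UMI in oligodendrocyte-like nuclei, where 3 UMIs would have been 5.95 and 6.57 CPM.

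*Plekhg1* differed from *Tcf7l2* in that its level stayed high in oligodendrocyte-like nuclei. It was 35.2, 35.5, 30.9 and 20.9 CPM in precursor-like, 486, 498, 429 and 313 CPM in newly formed and 324, 348, 272 and 265 CPM in oligodendrocyte-like nuclei. The latter rested on 263, 364, 137 and 121 UMIs. In oligodendrocyte-like nuclei both PE-low libraries were above both PE-high libraries, and the sum of the 6 oligodendrocyte markers was in the same order of groups, at 12360, 12475, 10226 and 11449 CPM. The part of that difference in *Plekhg1* was not tested. *Axin2* and *Tcf7* had at most 6 UMIs per library in oligodendrocyte-like nuclei.

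**Figure D4:**
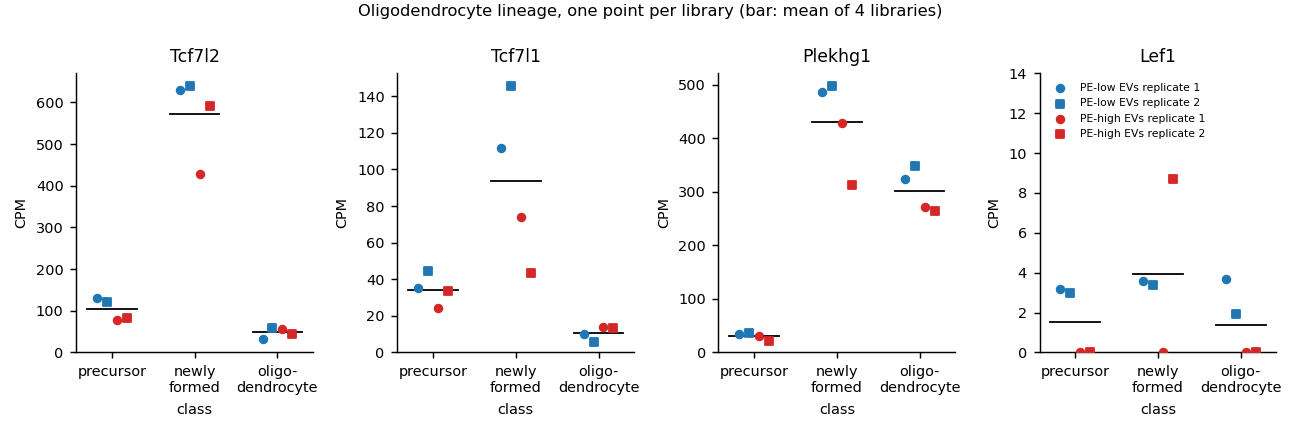
Levels (CPM) of Tcf7l2, Tcf7l1, Plekhg1 and Lef1 in oligodendrocyte precursor-like, newly formed oligodendrocyte-like and oligodendrocyte-like nuclei, one point per library (blue for PE-low EVs, red for PE-high EVs) with a bar at the mean of 4 libraries. Tcf7l2 has a mean of 572 CPM at the newly formed stage and is 48.4 CPM in oligodendrocyte-like nuclei, where Plekhg1 has a mean of 302 CPM.

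Astrocyte-like nuclei held *Tcf7l2*, *Tcf7l1* and *Plekhg1* together. *Tcf7l2* was 292 ± 23.02 CPM (SD, n = 4 libraries) with little spread, and *Tcf7l1* was 122 ± 25.04 CPM (SD, n = 4). *Plekhg1* ranged from 226 CPM in PE-low EVs replicate 1 to 587 CPM in PE-low EVs replicate 2, so that the PE-low group enclosed the PE-high group. *Lef1* was 22.5 ± 0.748 CPM (SD, n = 4) in astrocyte-like nuclei, 11 to 17 UMIs per library, above its ambient level in each. In microglia-like nuclei *Tcf7l2* was 107, 362, 153 and 185 CPM, while *Lef1*, *Tcf7* and *Tcf7l1* had at most 4 UMIs per library. Among the classes described, the order of *Tcf7l2* by mean level was newly formed oligodendrocyte-like (572 ± 98.2 CPM), astrocyte-like (292 ± 23.02), *Slc17a6* subcortical neuron-like (282 ± 77.7), microglia-like (202 ± 111), endothelial-like (126 ± 71.0), oligodendrocyte precursor-like (104 ± 26.4) and oligodendrocyte-like (48.4 ± 12.3; SD, n = 4 libraries in each). The last step of this order and the first exceeded the spread of the libraries, and from the astrocyte-like to the precursor-like class each neighbouring pair had overlapping ranges. Among the same classes the order of *Lef1* began with endothelial-like (449 ± 207), *Slc17a6* subcortical neuron-like (79.0 ± 77.7) and astrocyte-like (22.5 ± 0.748), and the ranges of the latter pair overlapped. Nuclei with a *Lef1* UMI made up 28.5%, 15.1% and 1.81% of these classes. Outside this order, ependymal-like nuclei had 13 *Lef1* UMIs in 81 nuclei (8.64% with a UMI). *Tcf7l2* was found in 23.5% of these nuclei and in 28.6% of 35 fibroblast-like nuclei, from 20 and 12 UMIs. *Tcf7l1* had 21 UMIs in fibroblast-like nuclei, where 40.0% had a UMI, against 9.90% of astrocyte-like nuclei. The unnamed vascular clusters had 172 *Lef1* UMIs in 502 nuclei (22.1%).

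PE-high EVs were compared with PE-low EVs in 4 classes by the quasi-likelihood test of edgeR on UMIs summed per library. In neuron-like nuclei the fitted log2 fold changes (PE-high EVs over PE-low EVs) of all 6 genes were below 0. That of *Lef1* was -3.36 ± 0.72 (standard error), that of *Plekhg1* -1.71 ± 0.62 and that of *Tcf7l2* -1.46 ± 0.63. *Tcf7* (-0.64 ± 0.38), *Tcf7l1* (-0.58 ± 0.29) and *Axin2* (-0.35 ± 0.20) were closer to 0. None of the 6 passed an adjusted p of 0.1, and neither did any other of 16271 genes (percent called: 0), while 553 genes had an unadjusted p under 0.05. DESeq2 called 3 genes, *Lef1* (log2 fold change -3.41, adjusted p = 0.0313), *Ndst4* and *E130114P18Rik*. *Lef1* was chosen with this contrast known, so its call is a description and not a test. It had 30 and 89 UMIs in the PE-low libraries and 3 and 6 in the PE-high libraries. It passed the filter on low counts through the PE-low libraries. In 4 of the 6 genes, *Lef1*, *Tcf7l1*, *Axin2* and *Plekhg1*, both PE-low libraries were above both PE-high libraries, and such a separation was seen in 31.6% of all tested genes, and in this direction in 19.9%.

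The neuronal log2 fold changes depended on single libraries to different degrees. With each library left out in turn, *Lef1* ranged from -3.97 to -2.31, *Tcf7l2* from -2.33 to -0.20 and *Plekhg1* from -2.65 to -0.59. Without PE-low EVs replicate 2 the values were -2.31, -0.20 and -0.59 in that order of genes. Without PE-low EVs replicate 1 they were -3.97, -2.12 and -2.34. In either fit the lone PE-low library is assumed to vary as the others do. With all *Slc17a6* subcortical clusters left out, the log2 fold change was -0.99 for *Tcf7l2* and -0.74 for *Plekhg1*, and with cluster S5 alone left out it was -0.79 and -0.74. *Lef1* was too rare to be tested in either fit. In the nuclei of both fits, *Tcf7l2* and *Plekhg1* were below their ambient levels in every library. Those ambient levels were highest in PE-low EVs replicate 2 and lowest in PE-high EVs replicate 1. The part of ambient RNA in the fold changes was not tested. The summed level of 12 markers of *Slc17a6* subcortical neurons in neuron-like nuclei was 388, 731, 373 and 408 CPM in the 4 libraries, with *Gbx2* or *Pou4f1* at 0 in all libraries but PE-low EVs replicate 2. The part of this difference in the fold changes was not tested beyond the fits without those clusters. Oligodendrocyte markers in the same nuclei summed to 576, 569, 407 and 384 CPM, and the median UMIs per nucleus were 2132, 2942, 1566.5 and 1608. Both were lower in both PE-high libraries, and their part in the fold changes was not tested.

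Within the *Slc17a6* subcortical class, the log2 fold change of *Lef1* was -2.68 ± 0.60 and that of *Plekhg1* -1.32 ± 0.45, while that of *Tcf7l2* was -0.03 ± 0.33. No gene of 3230 passed the threshold (percent called: 0) in edgeR or in DESeq2, and 106 had an unadjusted p under 0.05. Both genes had 0 UMIs in PE-high EVs replicate 1, which had 26 nuclei, and without that library the log2 fold changes were -2.31 for *Lef1* and -0.90 for *Plekhg1*. Without PE-high EVs replicate 2 the remaining PE-high library was at 0 for both, and the 42 genes past the threshold, *Lef1* and *Plekhg1* among them, rest on 1 PE-high library of 26 nuclei whose spread is taken from the PE-low libraries, so they are no test of the treatment. With all libraries both were among the 34.4% of tested genes whose groups did not overlap.

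In endothelial-like nuclei *Lef1* had a log2 fold change of -0.86 ± 0.48, *Plekhg1* of -0.35 ± 0.42 and *Tcf7l2* of -0.12 ± 0.77. None of 2327 genes passed the threshold (percent called: 0) in edgeR or DESeq2, and 22 had an unadjusted p under 0.05. The groups did not overlap for *Lef1*, as for 26.1% of tested genes. Without PE-low EVs replicate 1, the library with the low interferon-induced genes, *Lef1* was at -0.39. Without PE-low EVs replicate 2 it was at -1.24, and *Tcf7l2* was then removed by the filter on low counts. That fit sets PE-low EVs replicate 1 alone against 2 libraries, with the spread taken from the PE-high group. In simulated data with these library sizes and the same dispersion for every gene, 27.3% of genes changed by 4 times were recovered. In oligodendrocyte-like nuclei *Tcf7l2* was at 0.12 ± 0.33 and *Plekhg1* at -0.31 ± 0.20, and the other 4 genes were too rare to be tested. None of 8824 genes passed (percent called: 0) with edgeR or DESeq2, 435 had an unadjusted p under 0.05, and *Plekhg1* was one of the 34.8% of tested genes whose groups did not overlap.

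**Figure D5:**
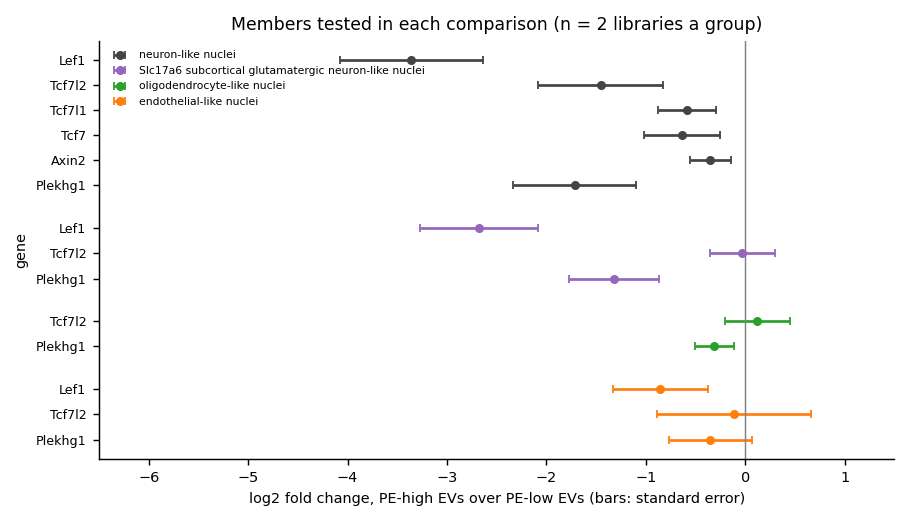
Fitted log2 fold change, PE-high EVs over PE-low EVs, with its standard error, for each of the 6 genes that was tested in each of 4 classes (n = 2 libraries a group). Lef1 lies furthest from 0 in neuron-like (-3.36) and Slc17a6 subcortical neuron-like nuclei (-2.68), and Tcf7l2 in the latter lies at -0.03.

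The other genes of the pathway were followed through a list of 109 ligands, receptors, inhibitors, transducers, nuclear co-factors and targets. Of these, 81, 40, 17 and 17 were tested in neuron-like, oligodendrocyte-like, endothelial-like and *Slc17a6* subcortical neuron-like nuclei, and none passed the threshold in either direction. Their median log2 fold changes were -0.02, -0.07, -0.31 and -0.16, beside medians of -0.0019, 0.0011, 0.02 and -0.02 over all tested genes. In endothelial-like nuclei 15 of the 17 were below 0. The median of all 2327 genes tested there was 0.02, so fewer of those genes lay below 0 than above it. Their exact share was not counted. PE-low EVs replicate 1, the library with the low interferon-induced genes, was highest for *Apcdd1* (406 CPM) and *Fzd6* (262 CPM) and lowest for *Tle4* (98.2 CPM). The part of that library in the count was not tested. By role, the 14 ligands and agonists tested in neuron-like nuclei had a median of 0.20, with 9 above 0, and the 16 transducers had a median of -0.05, with 12 below 0.

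The leading members of the list were partly shared between the classes, with *Wls* leading secretion in all 3. In endothelial-like nuclei the highest target was *Slc2a1*, the glucose transporter of the barrier, at 1205, 1140, 985.4 and 974 CPM. The highest inhibitor was *Apcdd1*, a membrane protein that binds Wnt, at 406, 128, 105 and 108 CPM. The highest receptor was *Fzd6* at 262, 52.8, 92.0 and 108 CPM. *Apcdd1* and *Fzd6*, like *Lef1*, were highest in PE-low EVs replicate 1, whereas the co-repressor *Tle4*, the highest nuclear co-factor, was lowest there, at 98.2 CPM against 271 to 347 CPM. *Ctnnb1*, which encodes β-catenin, was the highest transducer at 406, 400, 328 and 162 CPM. In oligodendrocyte-like nuclei the leading members were *Hipk2*, a kinase, at 395 ± 37.6 CPM (SD, n = 4), *Apc* of the destruction complex at 322 ± 33.0 CPM, *Wls*, which carries Wnt to the cell surface, at 76.0 ± 17.7 CPM, *Dkk3* at 56.4 ± 11.8 CPM, the co-receptor *Lrp6* at 52.8 ± 7.55 CPM, *Slc2a1* at 27.7 ± 10.25 CPM and the ligand *Wnt4* at 17.7 ± 5.97 CPM. In neuron-like nuclei they were *Apc* at 316 ± 15.3 CPM, *Crebbp*, a co-activator, at 220 ± 8.62 CPM, *Znrf3*, a ligase that removes Frizzled receptors, at 87.2 ± 3.197 CPM, *Lrp6* at 81.9 ± 3.78 CPM, *Wls* at 36.1 ± 4.94 CPM, the agonist *Rspo3* at 31.7 ± 4.72 CPM and *Tnfrsf19* at 29.6 ± 2.13 CPM. Relative to their means, these levels in neurons spread less between libraries than those of *Lef1*, *Tcf7l2* and *Plekhg1* in neurons.

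Genes with a pattern like those of *Lef1* and *Tcf7l2* were looked for over the 40 clusters with at least 50 nuclei, by Pearson's r of log2(CPM + 1) among 13745 genes with at least 200 UMIs. The clusters share libraries, depth and ambient RNA, so the values are a description. Closest to *Lef1* were *Insr* (r = 0.823), the insulin receptor, *Vwa1* (0.822), *Ifitm3* (0.812), an interferon-induced membrane protein, *Ccdc141* (0.809) and *Epas1* (0.807), a hypoxia-inducible factor of endothelium. Closest to *Tcf7l2* were *Gab1* (0.816), an adaptor of growth factor receptors, *Cnksr3* (0.795), *Agmo* (0.762), *Plekhg1* (0.758) and *Gramd3* (0.757). *Lef1* and *Tcf7l2* had an r of 0.699 with each other, and *Axin2* had 0.391 with *Lef1* and 0.149 with *Tcf7l2*.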

How the data were processed

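Nuclei from sections of brain were profiled in 4 libraries with 10x 3′ v3.1 chemistry. Cell Ranger 7.1.0 on mm10 made the files that the authors deposited, which hold whole-number UMI counts for every droplet, empty ones too, without normalization. The deposited gene and barcode lists hold names only. The members and gene lists were chosen with earlier results of these data known.

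Nuclei were called by a knee 10 times below the 0.99 quantile of UMIs, and smaller barcodes down to 500 UMIs by a comparison with ambient RNA. The knee lay at 573 and 839 UMIs in the PE-low libraries, where that comparison added 370 and 953 barcodes. In the PE-high libraries it lay at 405 and 422 UMIs, below 500, so no barcode was compared with ambient RNA there. The range of genes per nucleus was 200 to 2500, and nuclei over 15% mitochondrial UMIs were dropped. A limit of 3%, as in the study's methods, left 1 endothelial-like nucleus here and was an alternative. Clustering used 2000 variable genes without the 6 genes, 30 principal components, 20 neighbours and Leiden at a resolution of 0.8 (scanpy 1.11.5, leidenalg 0.10.2), and vascular clusters and 1 mixed neuronal cluster were divided again. A cluster was named when at least 3 markers of its class were at 20 CPM or more. Foreign markers also could not outnumber its own among its 10 leading genes. Neuronal clusters were checked against the markers of all neuron lists together, so this check did not tell the neuron classes apart. These thresholds were chosen with the clusters in view. They left out 3 interneuron or other neuron clusters, 6.33% to 7.95% of the neurons per library with them. UMIs were summed per class and library, so p-values measure the spread between libraries of pooled mice. Genes were kept by filterByExpr, scaled by TMM and tested with edgeR 4.0.16 (R 4.3.3) with Benjamini-Hochberg adjustment at 0.1. In simulated counts every gene of a class had the same dispersion, the spread between libraries beyond counting error. There, 81.6% of genes changed by 2 times and 100% of those changed by 4 times were recovered in neuron-like nuclei. The shares were 45.4% and 96.9% in oligodendrocyte-like, 1.2% and 27.3% in endothelial-like and 17.6% and 85.4% in *Slc17a6* subcortical neuron-like nuclei. They need not hold for genes that spread more between libraries. *Lef1* in neuron-like nuclei was fitted at a log2 fold change of -3.36 and was not called. The alternatives were DESeq2 1.42.0, other size factors, no filter, a replicate block, other limits on nuclei, doublet scores and leaving out each library. The genes named are the 6 members, the highest gene of each role of the Wnt list in neuron-like, oligodendrocyte-like and endothelial-like nuclei, Wnt genes past the threshold (none), and the 5 genes most like *Lef1* and *Tcf7l2*.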

Additional observations from a re-analysis of the deposited data

Results flagged for a closer look

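*Tcf7l1* differed in opposite directions between the groups in a pair of classes, without passing the test in neuron-like nuclei and too rare to be tested in oligodendrocyte-like nuclei. Both PE-high libraries were above both PE-low libraries in oligodendrocyte-like nuclei, by a mean of 5.72 CPM and from 27 UMIs in all, and below both of them in neuron-like nuclei, with a mean difference of -1.68 CPM from 196 UMIs. Groups that do not overlap were seen in 34.8% of tested genes in oligodendrocyte-like and 31.6% in neuron-like nuclei. The difference between the classes was not tested.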

How the results depend on the processing

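Of the counts of genes past an adjusted p of 0.1, all 0 with every library, 25 of 30 stayed at 0 when the tool, size factors, filter, nuclei or block was changed. DESeq2 called 3 genes in neuron-like nuclei. Without a filter on low genes, 9 were called in oligodendrocyte-like and 1, *Sele*, in endothelial-like nuclei. With a replicate block, 247 were called in neuron-like nuclei, *Lef1* (log2 fold change -3.37), *Plekhg1* (-1.71) and *Tcf7l2* (-1.42) among them, and 3 in *Slc17a6* subcortical neuron-like nuclei, *Pde1a*, *Lef1* (-2.64) and *Tafa1*, and no other count moved. The libraries share only a number, since the labels tie it to no batch, and the deviations of same-numbered libraries correlated at 0.203, 0.0716, 0.0467 and 0.112 over genes in neuron-like, oligodendrocyte-like, endothelial-like and subcortical nuclei. Leaving out each library in turn gave 0 to 920 genes in neuron-like, 2 to 26 in oligodendrocyte-like, 0 to 335 in endothelial-like and 0 to 42 in subcortical nuclei, and the cause was not tested.

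Of the 6 genes' log2 fold changes, 7 of 165 reversed. *Tcf7l2* ranged from -0.23 to 0.63 in oligodendrocyte-like and from -0.91 to 0.23 in subcortical nuclei, and *Plekhg1* from -0.69 to 0.031 in endothelial-like nuclei, when single libraries were left out. *Tcf7l2* was at 0.068 in endothelial-like nuclei with the block and at 0.082 in subcortical nuclei without the 8% of highest doublet scores, an alternative chosen after seeing the data, as were cluster S5 left out and the 3 unnamed neuron clusters added (*Lef1* -3.25 in neuron-like nuclei). With at most 3% mitochondrial UMIs the levels in oligodendrocyte-like nuclei were 6.34 CPM of *Lef1*, 1.95 of *Tcf7l1* and 12.97 of *Axin2*, from 214 nuclei, and in subcortical nuclei 159 CPM of *Lef1* and 285 of *Plekhg1*, from 182. The other 61 levels moved by less than the spread between libraries. In endothelial-like nuclei that limit left 1 nucleus and gave no value. Leaving out nuclei that Scrublet calls doublets was not run, since it marked too few.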
